A study of Salmo salar with 20 samples.

Results

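Sunflower meal with saponins (SFM + S) was 1 of 5 diets on which single Atlantic salmon were compared with fish on the same plant protein source without saponins. It comprised the 4 arrays labelled sunflower meal, fish 1 to 4, of the 20 arrays analysed. Each array set distal intestine RNA of 1 fish fed 2 g/kg of saponins for 80 days against a pool of RNA of 12 fish fed the matching diet without saponins. The other diets, with 4 arrays each, were pea protein concentrate (PPC + S), corn gluten (CG + S), horsebean meal (HBM + S) and rapeseed meal (RSM + S), all with the same saponin dose and time. The fish had a mean weight of 270 g when they were allocated to tanks, and neither age nor strain is given in the labels. The methods describe them as post smolts of the Sunndalsøra breed. The 4 fish of a diet came from 2 tanks, 2 from each. The labels do not name the tank, so the fish are treated as independent and p can be too small.

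The distal intestine of salmon is lined by enterocytes, which take up peptides and lipid through membrane transporters and export lipid on apolipoproteins. Saponins are plant glycosides with a lipid-like core and sugar side chains that can act on membranes, and they are known for their part in the soybean meal-induced enteritis of salmonids. MHC class I molecules, which present peptides on the cell surface, and large GTPases are induced by interferons in many vertebrate tissues.

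Values are log2 ratios of a fish over its pool, from the authors' Lowess-normalized table, with the 2 spots of a probe averaged. A mean of the 4 fish was tested against 0 with limma. A probe was past the limits when p, adjusted after Benjamini and Hochberg, was under 0.05 and the change over 1.6-fold. Of 21322 probes, 18407 had a value in all 4 SFM + S fish, 767 in 3 and 2148 in fewer. On each of the 4 arrays, at least 75.8% of the probes had a spot well above background in either channel. Precision is limited by how few arrays there are. As the control was 1 pool, the spread between control fish does not enter the test, and a high value in the pool would lower all 4 fish alike. All SFM + S arrays lay on 1 slide that held no other diet, so slide and diet cannot be told apart. The files hold identifiers of probes and no gene names. Names below come from matching the values of PPC + S to the study's gene lists, and each gene is given with the identifier of its probe. No gene position is given, because the annotation used holds none of these identifiers.

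The 4 fish did not vary together. By the labels and methods, fish were labelled with Cy5 and pools with Cy3 throughout, but the processed values of SFM + S fish 1 and 3 ran against the ratios of their arrays, with Pearson's r of -0.889 and -0.721 over 21360 spots, whereas fish 2 and 4 ran with them, at 0.714 and 0.757. The same held for fish 1 and 3 of every diet. Across 16889 probes, r was 0.30 between SFM + S fish 1 and 3 and 0.45 between fish 2 and 4, which share an orientation. Between orientations it was -0.12 for fish 1 and 2, -0.17 for fish 1 and 4, -0.37 for fish 2 and 3 and -0.15 for fish 3 and 4. The corresponding r between PPC + S fish of opposite orientation was 0.47 to 0.54. These are correlations across probes on arrays of 1 slide against 1 pool, and probes are not independent replicates. The direction of change in SFM + S is therefore not settled by the stated dyes, and which direction holds was not tested. By the stated dyes, the pool channel for Ssa#EG788820 read 23430, 18625, 2067 and 4249 on scanner arrays 1 to 4, matched to fish 4, 2, 3 and 1. In the processed direction it read 23127 and 20690 on arrays 3 and 4. For cytochrome P450 2M1 these readings were 105.5, 94.75, 559.75 and 421.25, against 163.75 and 158.25. The pool was steadier in the processed direction for both probes, which was not tested over all probes. Results are in the direction of the processed values, and counts and medians are given also with the signs of fish 1 and 3 turned. With these signs turned in every diet, the 958 probes that differed between SFM + S and PPC + S fell to 0. As PPC + S fish of opposite orientation ran together, turning fish 1 and 3 sets them against fish 2 and 4. The fall was thus built in and cannot test the direction. The mean of any gene with the same sign in all 4 fish shrinks by the turn in the same way.

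**Figure D1:**
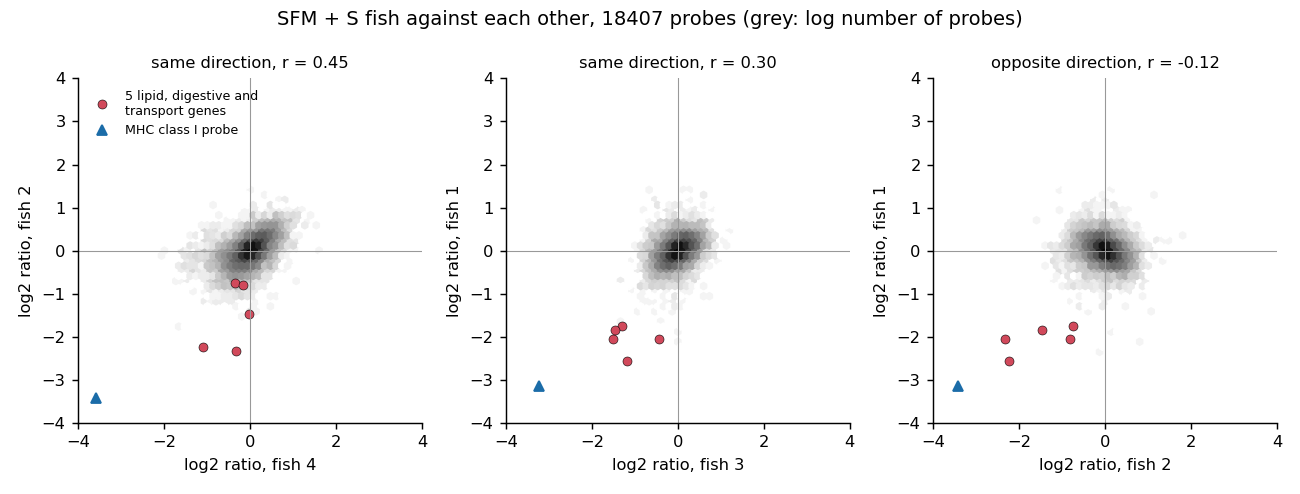
Log2 ratio of fish over pool of 1 SFM + S fish (y axis) against another (x axis) over 18407 probes, with grey shading for the log number of probes, for fish 2 against 4 and 1 against 3 (same direction) and fish 1 against 2 (opposite direction). The cloud tilts upward in the same-direction panels (r of 0.45 and 0.30) and slightly downward in the opposite one (-0.12), while the MHC class I probe and 5 lipid, digestive and transport genes lie at or below 0 in both fish of each pair.

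In SFM + S, 1 probe was past the limits, that of an MHC class I gene, which was lower than the pool in all 4 fish. No probe was higher (0%) and 1 was lower (0.00543%) of the 18407 tested. Without adjustment of p, 15 probes were higher (0.0815%) and 42 lower (0.228%), and 13 and 37 of these changed the same way in 4 of 4 fish. By sign alone, 1023 probes (5.56%) were higher and 684 (3.72%) lower in all 4 fish. A larger group, 3370 probes, was higher in fish 2 and 4 and lower in fish 1 and 3, and 3035 showed the reverse. With the signs of fish 1 and 3 turned, 30 probes were higher (0.163%) and 6 lower (0.0326%) past the limits, and none was shared with the call above. Tested alone in the same way, PPC + S had 323 higher (1.77%) and 343 lower (1.88%), and CG + S, HBM + S and RSM + S had none higher and 3 (0.0161%), 2 (0.0116%) and 3 (0.0163%) lower. In SFM + S, the count was 0 without fish 2 or without fish 3, and 3, all lower, without fish 1. These diets had different pools, and the counts were not tested against each other. Without adjustment, limma gave 4 (0.0215%), 14 (0.0812%) and 9 (0.0489%) probes higher in CG + S, HBM + S and RSM + S. The probes lower in these diets were not counted without adjustment, so the 42 of SFM + S have no counterpart here.

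The MHC class I probe (Ssa#S30241035) had log2 ratios of -3.15, -3.43, -3.22 and -3.58 in SFM + S fish 1 to 4. The fish lay close together, and every one was far below the pool. The mean was -3.35 ± 0.20 (SD, n = 4), a 10.2-fold lower level than in the pool, with an adjusted p of 0.00303 by limma. On the scanner files, the brighter channel changed with the array. Arrays 1 and 2, matched to fish 4 and 2, had median signals of 70.3 and 67.5 in red against 583 and 519 in green. Arrays 3 and 4, matched to fish 3 and 1, had 453 and 412 in red against 49.3 and 49.8 in green. Read by the stated dyes, fish 1 and 3 would thus lie above the pool, and with their signs turned the mean was -0.16. The dimmer channel was low on every array. Its local background was 51 and 47.5 in red on arrays 1 and 2, and 16.5 and 14.8 in green on arrays 3 and 4. In red on array 2, 1 of 2 spots was well above background. Dim signals can thus limit both the size of the fall and the spread between fish. The same probe was at -2.32, -2.42, -2.51 and -2.49 in PPC + S. In CG + S it was at -1.99, 2.76, -2.05 and -1.96, and in RSM + S at -2.75, 1.38, -2.72 and 1.84. Of these diets, SFM + S and PPC + S had all 4 fish below the pool. Leaving out SFM + S fish 2 or 3 lost the call, with adjusted p of 0.0633 and 0.0548 by limma at means of -3.32 and -3.39. HBM + S had a value in 1 fish (4.97), and the probe was therefore not tested between diets.

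**Figure D2:**
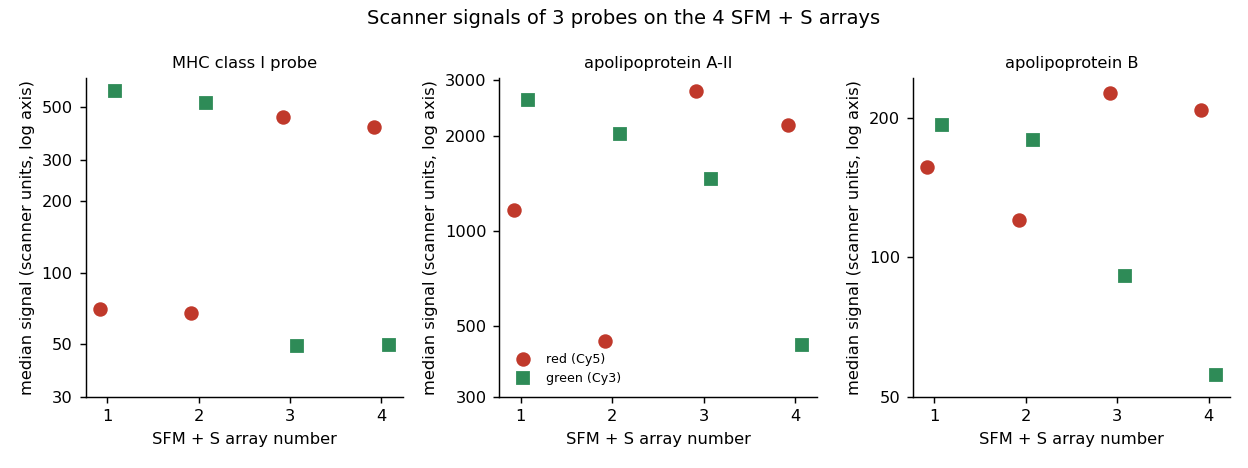
Median signal in red and green (y axis, scanner units, log axis) on SFM + S arrays 1 to 4 (x axis) for the MHC class I probe, apolipoprotein A-II and apolipoprotein B. In all 3 panels green is brighter on arrays 1 and 2 and red on arrays 3 and 4, with 70.3 in red against 583 in green for the MHC class I probe on array 1.

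Other MHC class I probes did not share this pattern. A second entry, MHC class I antigen (Ssa#S29966058), was at -1.25, 0.46, 1.11 and -0.14 in SFM + S fish 1 to 4. The MHC I probe found through the accession of the study's qPCR assay (Ssa#GRASP209733777) was at 0.93, -2.25, 0.81 and -0.21. Both had fish on either side of the pool. A very large inducible GTPase (Ssa#S35555077), a member of an interferon-induced GTPase family, was at -3.13, -0.14, -2.29 and -2.09. Fish 1, 3 and 4 were well below the pool and fish 2 was near it. Its mean was -1.91 ± 1.26 (SD, n = 4), with a p of 0.00984 by limma before adjustment that did not pass after it. In the list of IFN-dependent genes, 2 of 11 measured entries were past the unadjusted limits, both lower, against 0.228% of all probes, and 3 were lower in all 4 fish, against 3.72%. The list median was -0.19 against 0.01 for all probes tested, and -0.07 with the signs turned. The study chose its lists on the PPC + S arrays of the same experiment, mostly by the change in those fish.

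No gene of lipid and steroid metabolism passed the adjusted limits in SFM + S, and 3 of those named had means over 1.6-fold below the pool. Apolipoprotein A-II (Ssa#S18862675), a protein of high-density lipoprotein, was at -2.58, -2.24, -1.17 and -1.10 in fish 1 to 4. Acyl-CoA desaturase (Ssa#GRASP223648565), which introduces a double bond into fatty acids, was at -2.05, -2.33, -1.50 and -0.33. Apolipoprotein B (Ssa#S18892500), the structural protein of chylomicrons, was at -1.76, -0.75, -1.31 and -0.37. All 3 genes were below the pool in every fish, most in fish 1 or 2 and least in fish 4. The means were -1.77 ± 0.75, -1.55 ± 0.89 and -1.04 ± 0.61 (SD, n = 4 each), which are 3.41-fold, 2.94-fold and 2.06-fold lower levels than in the pool. Their p before adjustment were 0.00145, 0.00545 and 0.00643 by limma, and the adjusted p of apolipoprotein A-II was 0.795. Of 39 measured entries on lipid and steroid metabolism, 4 were past the unadjusted limits, all lower. In all 4 fish, 8 entries (20.5%) were lower and 1 higher, against 3.72% lower among all probes. The list median was -0.11, and -0.01 with the signs of fish 1 and 3 turned. Of the 39 entries, 31 had a mean below 0, against 8085 of 18407 probes. In fish 1 to 4, 9, 9, 3 and 4 entries were over 1.6-fold lower. Among all probes these shares were 1.33%, 1.98%, 1.06% and 3.21%, against 23.1%, 23.1%, 7.69% and 10.3% of the list. With the signs turned, apolipoprotein A-II, acyl-CoA desaturase and apolipoprotein B had means of 0.10, 0.22 and 0.49.

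Apolipoproteins A-I, the main proteins of high-density lipoprotein, were lower by less. Apolipoprotein A-I-1 (Omy#S15286673) was at -1.44, -0.34, -0.20 and -0.22 in fish 1 to 4, and A-I-2 (Omy#S24638154) at -1.04, -0.63, -0.03 and -0.46. The lowest value of both was in fish 1, and no fish was above the pool. Intestinal fatty acid-binding protein (Ssa#S30237902), which carries fatty acids inside enterocytes, was at -0.45, -0.02, -0.35 and -0.08. Retinol dehydrogenase 8, an enzyme of retinoid metabolism, had the highest mean of the entries named in the lipid list, 0.12 ± 0.40 (SD, n = 4).

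Lactase-phlorizin hydrolase (Omy#S18154208), a disaccharidase of the enterocyte surface, was at -1.85, -1.47, -1.46 and -0.02 in SFM + S fish 1 to 4. Solute carrier family 15 member 1 (SLC15A1, Ssa#S31963796), the peptide transporter of the brush border, was at -2.05, -0.81, -0.44 and -0.17. Fish 1 was lowest and fish 4 at or near the pool for both genes. The mean of lactase was -1.20 ± 0.81 and that of SLC15A1 -0.86 ± 0.83 (SD, n = 4 each), with p of 0.0109 and 0.0408 by limma before adjustment. With the signs turned the means were 0.45 and 0.38. Aquaporin-8 (a water channel) was at 0.30, -0.41, 0.04 and -0.43, with fish on both sides of the pool.

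**Figure D3:**
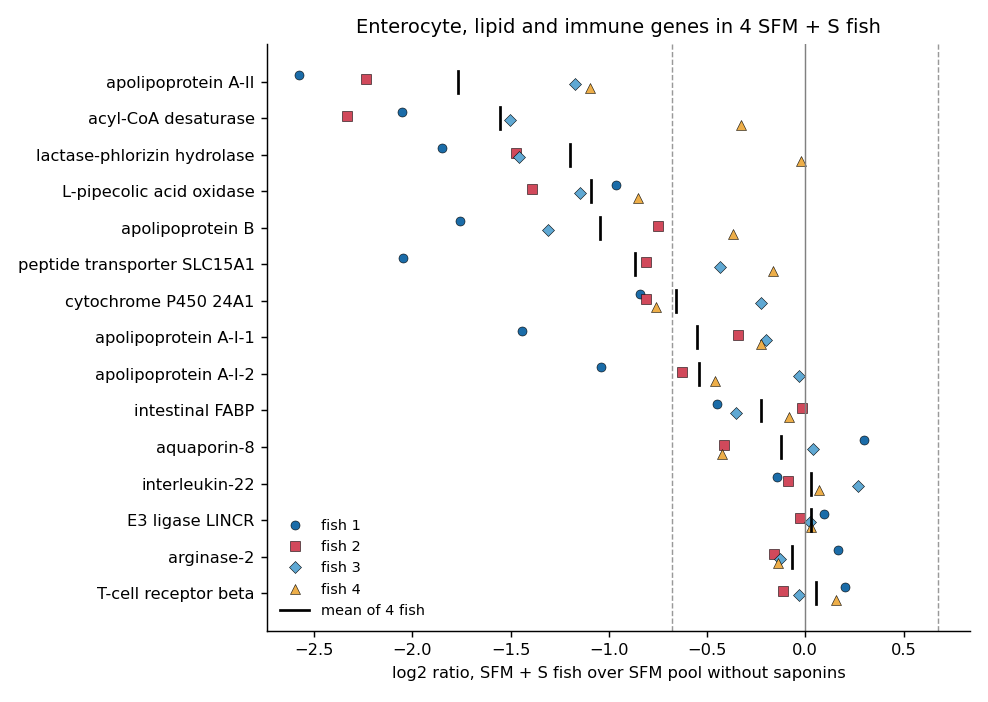
Log2 ratio of SFM + S fish over the pool (x axis) in each of the 4 fish (symbols) for 15 genes, with a black bar for the mean of 4 fish and dashed lines at a change of 1.6-fold. Apolipoprotein A-II lies between -2.58 and -1.10 in all fish. Fish 4 is nearest to 0 for acyl-CoA desaturase (-0.33), lactase (-0.02) and SLC15A1 (-0.17). LINCR and arginase-2, dim in both channels, lie within 0.2 of 0. Interleukin-22 was not well above background in red on any array.

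Cell type markers could be looked up only on the study's lists, so they are not a full check of tissue. The 9 enterocyte markers there, which include apolipoproteins, the fatty acid-binding protein, aquaporin-8, lactase and SLC15A1, were all measured in all 4 SFM + S fish. The lists were chosen mostly by the change in PPC + S, and all 9 markers were lower in 4 of 4 PPC + S fish. In SFM + S, 7 of the 9 markers were lower in 4 of 4 fish, against 3.72% of all probes. Past the unadjusted limits, 3 were lower, against 0.228%. The median of their means was -0.54. The median over the 9 markers was -1.29, -0.57, -0.20 and -0.21 in SFM + S fish 1 to 4, with 8, 9, 7 and 8 of 9 lower. Fish 1 was thus lowest by a wide margin. The same medians were -1.26, -2.85, -1.31 and -2.84 in PPC + S, -0.58, -0.03, 0.25 and -0.39 in CG + S, -0.27, -0.12, -0.33 and -0.004 in HBM + S, and -0.34, -0.42, -0.07 and 0.28 in RSM + S. SFM + S fish 1 lay in the range of the PPC + S fish, whereas SFM + S fish 2, 3 and 4 lay in the range of the other 3 diets. The PPC + S medians were low by the choice of the genes, so these ranges are a description. With the signs of fish 1 and 3 turned, the SFM + S median was 0.25. In intestine RNA, fewer enterocytes and less RNA of these genes per enterocyte cannot be told apart. Of 6 neutrophil and macrophage markers, 5 were measured, with a median of -0.22 and none past the unadjusted limits. The T-cell marker, a T-cell receptor beta chain (Ssa#GRASP209736251), had a mean of 0.05 ± 0.15, and the smooth muscle marker, without a name here, was at -0.41, 0.75, -0.80 and 0.56. The part of other cell types in the changes above was not tested.

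Other metabolic genes had smaller or less even changes. L-pipecolic acid oxidase (Ssa#CA040320), an enzyme of lysine degradation, was at -0.96, -1.39, -1.15 and -0.85 in SFM + S fish 1 to 4. The 4 fish lay closer together than for any lipid gene past the unadjusted limits, at a mean of -1.09 ± 0.24 (SD, n = 4) and a 2.13-fold lower level than in the pool. The adjusted p was 0.191 by limma. Of 22 measured entries on amino acid metabolism, it was the only one past the unadjusted limits. The transporter list had 2 of 21 past these limits, both lower, SLC15A1 and an entry whose match to a probe was not close enough to name. Cytochrome P450 24A1 (Ssa#S35700248), which inactivates vitamin D, was at -0.84, -0.81, -0.23 and -0.76, with fish 3 nearest to the pool. Its mean was -0.66 ± 0.29 (SD, n = 4), just short of 1.6-fold. Among 18 entries on xenobiotic metabolism, 4 were lower in all 4 fish (22.2%, against 3.72% of all probes) and none was past the unadjusted limits. The highest named entry, cytochrome P450 2M1 (Ssa#S32000380), was at 1.45, -0.90, 1.87 and -0.46, with fish 1 and 3 above and fish 2 and 4 below the pool. Its mean was 0.49 ± 1.37 (SD, n = 4), and -1.17 with the signs turned.

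Other highest entries of the metabolic lists also had fish on both sides of the pool. Guanidinoacetate N-methyltransferase (Ssa#GRASP209737805), which makes creatine, was at 1.41, 1.30, 0.28 and -0.41 in SFM + S fish 1 to 4. Carboxypeptidase N catalytic chain (Ssa#GRASP209153959) was at 0.50, -0.76, 1.26 and 0.34. A sulfate transporter (Ssa#S50697238) was at 0.20, 0.27, 0.50 and -0.14. Each had 3 fish above the pool and 1 below. The sulfate transporter probe found by accession (Ssa#DY730337) averaged 0.08 ± 0.46, and fatty acyl-CoA hydrolase (Ssa#CA041487), which releases fatty acids from acyl-CoA, -0.28 ± 0.38 (SD, n = 4 each). The digestive and lysosomal protease list had a median of 0.06 over 16 entries, of which lactase was the only one past the unadjusted limits.

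The immune lists other than the IFN-dependent genes had medians near 0. Of 23 entries for inflammatory mediators and transducers, none was past the unadjusted limits, and 1 was higher and none lower in all 4 fish. The list median was 0.03. Interleukin-22 (Ssa#TC106062), a cytokine that acts on epithelial cells, was at -0.15, -0.09, 0.27 and 0.07 in SFM + S fish 1 to 4. Its red channel was not well above background on any of the 4 arrays, so these ratios compare signals near the background and do not measure a change. The E3 ubiquitin ligase LINCR (Ssa#S47729315) was at 0.10, -0.02, 0.02 and 0.03. LINCR had fish on either side of the pool, and both genes were chosen after their values were seen. Arginase-2 (Ssa#GRASP223647763), found through its accession, was at 0.17, -0.16, -0.13 and -0.14. The spots of LINCR and arginase-2 were flagged well above background but were dim. Their red signals were 67 to 77.25 over local backgrounds of 44.25 to 50.75, so ratios near 0 do not show that there was no change. The effector list had a median of -0.08, which was 0.09 with the signs turned, and none of its 14 entries was past the unadjusted limits. The list of proteases, inhibitors and T-cell genes had a median of 0.01 over 11 entries, and that of oxidative burst and protection against free radicals -0.11 over 21, again with none past these limits.

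Among the named immune entries, some besides the IFN-dependent genes had all fish on 1 side of the pool. Among effectors, 1 of 14 entries was higher and 1 lower in all 4 fish. Of 11 entries on proteases, inhibitors and T-cell genes, 2 were higher and none lower. Of 21 on oxidative burst and protection against free radicals, 2 were higher and 2 lower. Among all probes, 5.56% were higher and 3.72% lower, and the lists were not tested against these shares. The genes named here are a description. Complement C1q-like protein 2 (Ssa#S35663823), a member of the C1q family, was at 0.25, 0.45, 0.39 and 0.71 in SFM + S fish 1 to 4. E74-like factor 3 (Ssa#S35663876), a transcription factor of epithelial cells, was at 0.29, 0.45, 0.06 and 0.25. 5-aminolevulinate synthase (Ssa#S18860945), the first enzyme of heme synthesis, was at 0.17, 0.35, 0.64 and 0.15. All fish were above the pool for these genes, by less than 1.6-fold on average, with means of 0.45 ± 0.19, 0.26 ± 0.16 and 0.33 ± 0.23 (SD, n = 4 each). Heme oxygenase (Ssa#GRASP209731837), which degrades heme, was below the pool in all fish, at -0.43, -0.93, -0.30 and -0.27. Catalase (Ssa#S35708455), which breaks down hydrogen peroxide, was also below it, at -0.06, -0.48, -0.15 and -0.002. Both were chosen after their values were seen, and their means of -0.48 ± 0.31 and -0.17 ± 0.22 (SD, n = 4 each) were also under 1.6-fold. Annexin A1 (Ssa#S18880387), an anti-inflammatory phospholipid-binding protein, had the highest mean of the named inflammatory entries but was at 1.46, 0.81, -0.67 and -0.49. It was higher in fish 1 and 2 and lower in fish 3 and 4. Neutrophil cytosolic factor 1 (Ssa#GRASP223647567), a subunit of the phagocyte NADPH oxidase, was at -0.85, -1.38, -0.31 and 0.17, and collagenase 3 (Ssa#GRASP209156091), a matrix metalloprotease, at -0.08, -0.85, -0.44 and 0.50. Fish 4 was above the pool and the others below it for both. C1 inhibitor (Ssa#S35025085) and CCAAT/enhancer binding protein beta-2 (Ssa#GRASP223672612) averaged -0.24 ± 0.71 and -0.07 ± 0.40 (SD, n = 4 each).

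Lists on tissue structure and stress showed no common direction. Adhesion and glycan genes had a median of -0.03 over 22 entries, exocytosis 0.02 over 4 and cellular stress -0.18 over 4, with none past the unadjusted limits. Gelsolin (Ssa#KSS3529), which severs actin filaments, was at -0.86, -0.56, 0.07 and 0.08 in SFM + S fish 1 to 4, and ubiquitin (Ssa#TC97951), which tags proteins for degradation, at -0.82, -1.12, 0.21 and -0.46. Fish 1 and 2 were lowest for both. The means of heat shock cognate 71 kDa protein (a chaperone), hyaluronan and proteoglycan link protein 4, beta-1,3-N-acetylglucosaminyltransferase 7 and a basic helix-loop-helix protein of class B lay between -0.16 and 0.15. Growth factors and regulators had a median of 0.10 over 7 entries, and 1, which could not be named, was the single rise past the unadjusted limits among all list entries. Over all 233 measured entries of the 14 lists, 1 was higher and 10 lower past the unadjusted limits, against 0.0815% and 0.228% of all probes. In all 4 fish, 9 (3.86%) were higher and 26 (11.2%) lower, against 5.56% and 3.72%. The median was -0.06, and -0.04 with the signs turned. Of the 155 entries that were lower in PPC + S, 5 were higher (3.23%) and 23 lower (14.8%) in all 4 SFM + S fish. Of the 78 entries higher in PPC + S, 4 were higher (5.13%) and 3 lower (3.85%). Among all probes these shares were 5.56% and 3.72%. Falls of list entries in all 4 fish beyond the share of all probes were not limited to SFM + S. Of all list entries, 26 were lower in all 4 fish of HBM + S, 23 of CG + S and 6 of RSM + S. Of the entries lower in PPC + S, the counts were 17, 13 and 5 in these diets. Among all probes, 1021 of 17119 in HBM + S and 1047 of 18086 in CG + S were lower in all 4 fish. In RSM + S, 1115 of 17972 probes were. The share among list entries was thus larger than among all probes in HBM + S and CG + S. In RSM + S it was smaller. The counts were not tested between diets.

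**Figure D4:**
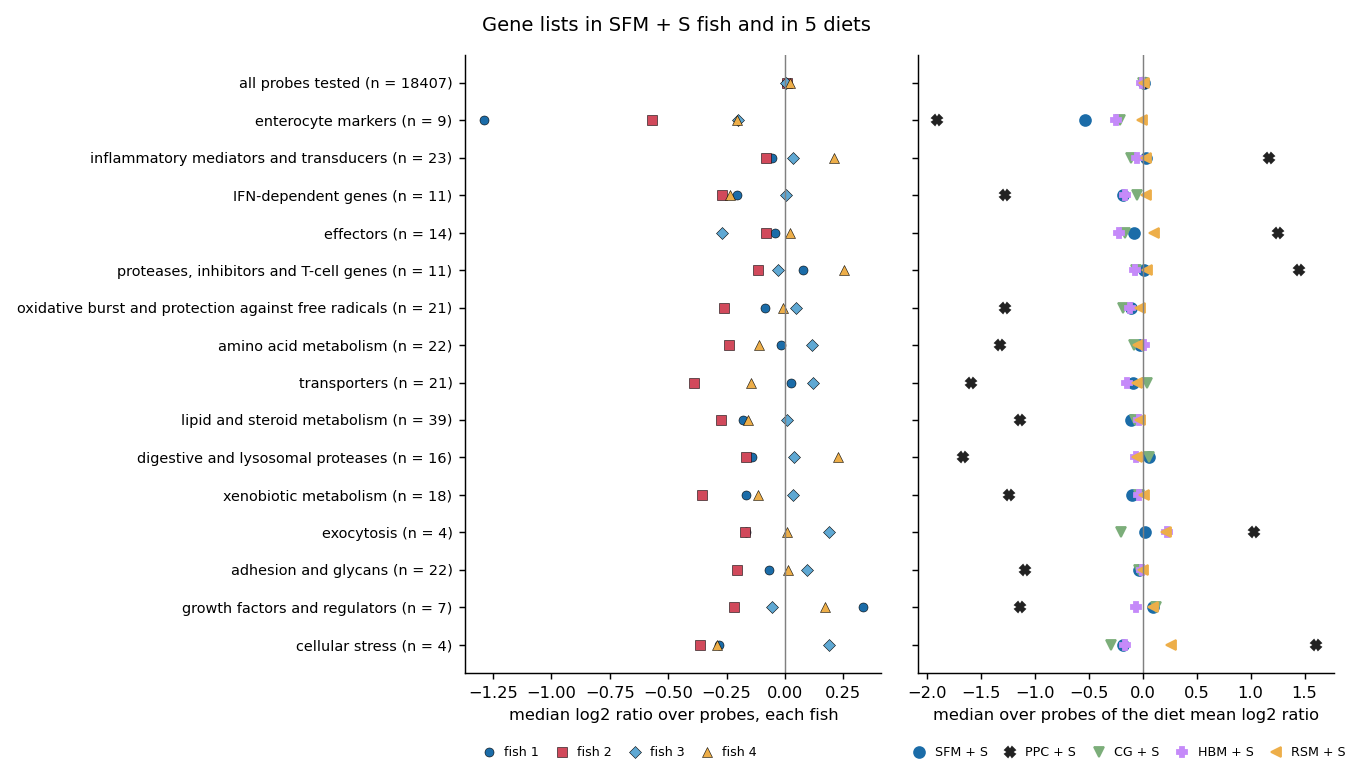
Median log2 ratio over the probes of each gene list in each SFM + S fish (left, symbols for fish) and median of the diet means in SFM + S and the other 4 diets (right), with the number of probes beside each list. The SFM + S medians of the 14 lists lie between -0.19 and 0.10, and that of the enterocyte markers at -0.54.

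The largest changes besides that of the MHC class I probe were those of probes without a gene name. Ssa#EG788820 was at -2.40, -3.66, -3.76 and -3.85 in SFM + S fish 1 to 4, and Ssa#DW006091 at -1.85, -3.05, -2.76 and -2.99. Fish 1 had the value nearest to 0 for both. Each had an adjusted p of 0.124 by limma. Ssa#EG788820 was also low in PPC + S, where the mean was -3.55 ± 0.51 (SD, n = 4). In CG + S, HBM + S and RSM + S it ranged between -3.95 and 2.49, with a median of -2.70 and 8 of 12 fish below the pool. For Ssa#DW006091, the channel that holds the fish, in the direction of the processed values, was well above background on 2 of the 4 arrays. The largest rises past the unadjusted limits were those of Ssa#EG791074, at 0.99, 2.45, 1.93 and 2.19, and Omy#S15341095, at 2.07, 0.28, 0.72 and 1.89. All 4 fish were above the pool for both, and the adjusted p of Ssa#EG791074 was 0.522.

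SFM + S was then set against the mean of CG + S, HBM + S and RSM + S, to ask which changes differed from those with the other protein sources except PPC. None was higher (0%) and 3 probes were lower (0.0169%) in SFM + S of 17709 tested, with 22 higher (0.124%) and 16 lower (0.0903%) by limma before adjustment. Ssa#DW006091 had the largest difference, -2.64, with an adjusted p of 0.00703 by limma. Its values in the other 3 diets lay between -0.96 and 1.63 with a median of -0.15, so that they did not overlap with the SFM + S values given above. Ssa#DY716550 was at -1.05, -1.32, -1.17 and -1.29 in SFM + S, against -0.63, -0.26, -0.56 and -0.69 in CG + S and between -0.24 and 0.07 in HBM + S and RSM + S. The difference was -0.97 with an adjusted p of 6.79e-05 by limma, and no fish of the other diets reached the SFM + S values. The channel that holds the fish, in the direction of the processed values, was dim for Ssa#DY716550. It was at 73 and 70 in red on arrays 1 and 2, over local backgrounds of 49 and 47. On arrays 3 and 4 it was at 65.5 and 44.3 in green, over 16.3 and 13.3. Dim signals can thus limit the spread between fish here too. The third probe was at -1.54, -1.31, -1.82 and -1.39 in SFM + S, a difference of -0.88 with an adjusted p of 0.0496. It was at -1.85, -1.76, -1.95 and -1.83 in CG + S, so that SFM + S did not differ from every diet there. With the signs of fish 1 and 3 of every diet turned, no probe was past the limits, and the count fell to 1 without SFM + S fish 2, 3 or 4.

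**Figure D5:**
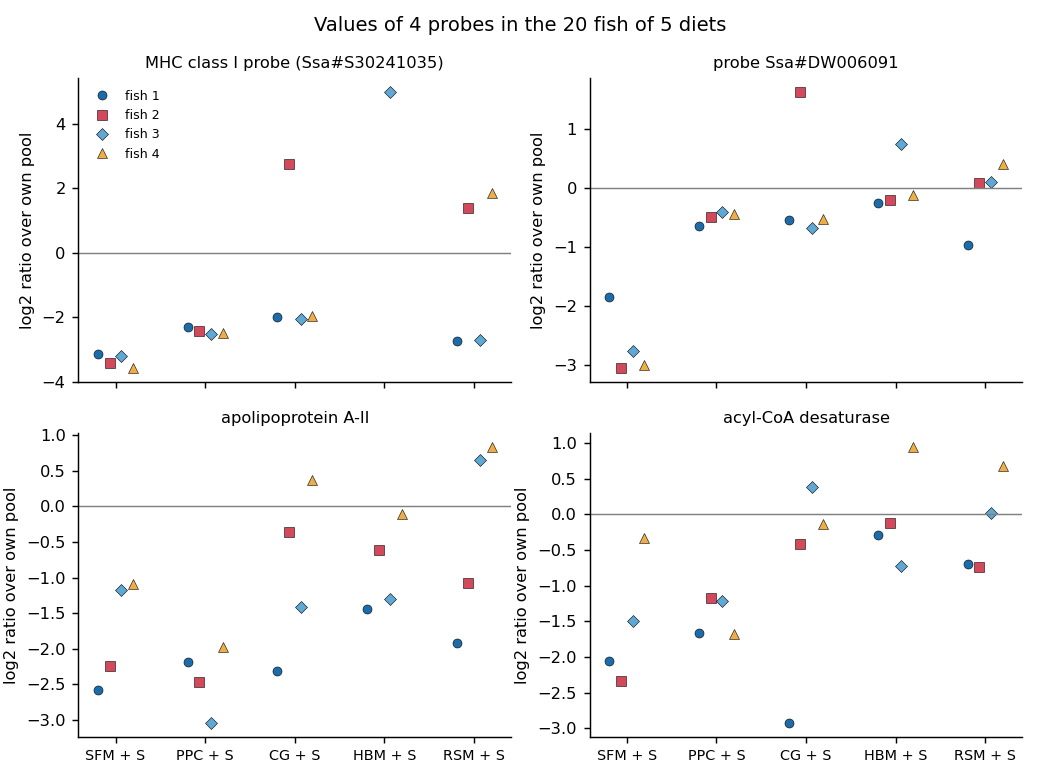
Log2 ratio of single fish over their own pool (y axis) in SFM + S, PPC + S, CG + S, HBM + S and RSM + S for 4 probes, with symbols for the fish number. Ssa#DW006091 lies between -3.05 and -1.85 in SFM + S and between -0.96 and 1.63 in CG + S, HBM + S and RSM + S, whereas apolipoprotein A-II and acyl-CoA desaturase overlap between SFM + S and these diets.

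The lipid and digestive genes did not pass this test, and their values in the other diets overlapped with those in SFM + S. Apolipoprotein A-II ranged between -2.31 and 0.83 in the 12 fish of CG + S, HBM + S and RSM + S, with a median of -0.84. Acyl-CoA desaturase ranged between -2.93 and 0.94 there, with a median of -0.21. Acyl-CoA desaturase differed by -1.22 and apolipoprotein A-II by -1.05, with p of 0.0211 and 0.0522 by limma before adjustment. L-pipecolic acid oxidase differed by -0.79 (p of 0.0572 before adjustment). None of the 9 enterocyte markers was past the unadjusted limits. Of the 42 probes lower in SFM + S before adjustment, 40 were tested here, of which 12 were also lower past the unadjusted limits and 3 past the adjusted ones. Of the 15 higher, 8 were also higher before adjustment and none after it. Both comparisons share the SFM + S arrays.

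Against PPC + S, 526 probes (2.97%) were higher and 432 (2.44%) lower in SFM + S. With the signs of fish 1 and 3 of both diets turned, none was past the limits (0%), a result built in by the turn as stated above. Leaving out a PPC + S fish moved the total of 958 to between 457 and 1350, and the lowest counts were those without PPC + S fish 4 (457) and fish 2 (530). In a fit of the 8 arrays of these diets alone, the total was 346.

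The genes named above differed between SFM + S and PPC + S to unequal degrees. Apolipoprotein A-II averaged -1.77 ± 0.75 in SFM + S and -2.42 ± 0.46 in PPC + S (SD, n = 4 each), a difference of 0.65 with an adjusted p of 0.618 by limma. Acyl-CoA desaturase averaged -1.55 ± 0.89 in SFM + S and -1.44 ± 0.27 in PPC + S, and apolipoprotein B -1.04 ± 0.61 in SFM + S and -1.54 ± 0.06 in PPC + S. The differences of -0.12 and 0.49 did not pass (adjusted p of 0.948 and 0.602 by limma), which does not show that the levels were alike. L-pipecolic acid oxidase averaged -1.09 ± 0.24 in SFM + S and -3.30 ± 0.50 in PPC + S, a difference of 2.22 with an adjusted p of 0.00803 by limma. Intestinal fatty acid-binding protein averaged -0.23 ± 0.21 in SFM + S and -2.55 ± 0.95 in PPC + S, and aquaporin-8 -0.13 ± 0.35 in SFM + S and -3.51 ± 1.16 in PPC + S. Since these genes were put on the lists for their change in PPC + S, the values are a description.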

How the data were processed

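Distal intestine RNA of 4 fish on each of 5 saponin diets was hybridised with a control pool on 2-colour arrays, 20 in all. The authors deposited log2 ratios (fish over pool) per spot after Lowess normalization. Of the probe spots, 9.62% to 14.5% were empty in the SFM + S columns, whose medians were 0.0045 to 0.0199. Per the methods, spots that GenePix had flagged for low quality were removed first. As deposited, the scanner files hold median intensities of the spots and their local backgrounds, and log10 ratios that the scanner software corrected for background and dye. Per the file headers, the authors' extraction software was Feature Extraction 10.7.1.1. The submitters' processing notes give version 9.6.1 and the methods name GenePix. Per the file headers, the flags for signal well above background are other values of 0 or 1, used only as a filter. Each array had 44061 spots, of which 1417 were control spots, with 2 spots for each of 21322 probes. Depth does not apply to arrays, and their number limits the precision.

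The members and the lists were chosen with earlier results of these data known. Using limma 3.58.1 in R 4.3.3, with files read by version 1.17.8 of data.table, the SFM + S arrays were fitted by themselves over probes with values in 4 of 4 fish. The comparisons between diets used all 20 arrays and 1 spread per probe. They covered probes with values in 4 of 4 SFM + S fish and in at least 3 fish of each other diet. In the fit of SFM + S simulated for 18407 probes, 200 were changed. Of these, 93 of 100 changed by 1 on the log2 scale and 100 of 100 changed by 2 were recovered, with 2 false calls. In the 4 fish, the MHC class I probe passed at a mean of -3.35. Ssa#EG788820 at -3.42, apolipoprotein A-II at -1.77 and L-pipecolic acid oxidase at -1.09 did not (adjusted p of 0.124, 0.795 and 0.191 by limma). The share of changes of such sizes that is found in the fish themselves was not tested. The scanner files were used for alternatives only, with normexp, an offset of 50 and loess. The columns of the processed values were matched to scanner arrays by correlation over spots. All 20 matched an array of their own diet, 8 with the same fish number, and the 10 that ran against the stated dyes were fish 1 and 3 of each diet. Fish numbers here are those of the processed values.

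Of 256 entries on the 14 lists of the study, 236 matched 1 probe by the fold change and SE in PPC + S within 0.0051, 17 matched 2 and 3 none, and 234 were used. An entry was named where no other probe lay within 0.05 of both values, which 88 did. Of the 4 qPCR genes found by accession, arginase-2 and fatty acyl-CoA hydrolase fell on the probe of the list match, while MHC I and the sulfate transporter did not. Named were the largest changes lower or higher in 4 of 4 fish, the qPCR genes found by accession, the entries past the unadjusted limits with the highest and the lowest named entry of each list, and the largest differences between diets. Where probes had no name, 2 in each direction were printed.

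Fish with the same number deviated together between SFM + S and the other diets, with r of 0.137 to 0.612 in 16 of 16 pairs. The mean r was 0.324, against 0.292 with the other number of the same orientation. In 11 of the 16 pairs the own number gave the highest r. Since the number also gives the orientation, the pairing by number comes from the data and not from the labels. Most of it is shared by fish of the same orientation. The alternatives concerned the test, the filters, the scanner files, the direction, the dye as a term, the arrays in the fit and single fish left out. Sequences were not used here. Calculations were run with Python 3.11.15, pandas 2.3.3, numpy 2.4.6 and matplotlib 3.10.9.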

Additional observations from a re-analysis of the deposited data

Results flagged for a closer look

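Of 46 named probes and 14 lists of SFM + S, 5 had 1 fish far from the other 3, by the gap of the outermost fish divided by the range of the 4. Chance alone passes the 95% limit of Dixon for 4 samples in about 1 in 20 groups. The ratio was 0.868 for Ssa#EG788820, with fish 1 at -2.40 and the other 3 between -3.85 and -3.66. It was 0.885 for apolipoprotein A-I-1, with fish 1 at -1.44 and the others between -0.34 and -0.20. For cytochrome P450 24A1 it was 0.864, with fish 3 at -0.23 and the others between -0.84 and -0.76. For arginase-2 it was 0.911, with fish 1 at 0.17 and the others between -0.16 and -0.13. The median of the cellular stress list had a ratio of 0.849, with fish 3 at 0.19 and the others between -0.36 and -0.28.

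The difference between SFM + S and the mean of CG + S, HBM + S and RSM + S was past the limits for 3 probes in limma's test of the difference itself. It was -2.64 for Ssa#DW006091, -0.97 for Ssa#DY716550 and -0.88 for another probe without a name. SFM + S differed from PPC + S in 958 probes by the same test.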

How the results depend on the processing

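The count of 1 probe in SFM + S was the same, with the same MHC class I probe, with values in at least 3 of 4 fish, with both spots present, with the filter on dim probes, with no fold limit, with centred arrays, with the dye as a term, and with the scanner files with or without background correction when arrays were turned to the processed values. It was 57 in limma without adjustment, 35 and 0 in the methods' t-test without and with Benjamini-Hochberg adjustment, 5 with the scanner software's own log ratios, 10 with a trended robust spread, and 3 in a fit of all 20 arrays, with or without the dye as a term, which could not hold the MHC class I probe for lack of values. It was 36 with the signs of fish 1 and 3 turned and 24 with the scanner files read by the stated dyes, and neither shared a probe with the count of 1. Leaving out 1 fish gave 0 to 3. The 3 probes that differed from CG + S, HBM + S and RSM + S became 38 without adjustment, 0 with the signs turned, 2 with the scanner files and 1 to 2 without 1 fish. The 958 probes against PPC + S became 346 with the 8 arrays alone, 0 with the signs turned, 662 to 873 without 1 SFM + S fish and 457 to 1350 without 1 PPC + S fish. With a replicate block for the fish number, the counts were 3 and 1244, which held 3 of the 3 and 956 of the 958 probes. The block was not run for single genes or lists. No block applies to the mean of SFM + S alone. The signs turned, the dye in the fit against PPC + S and the PPC + S fish left out were chosen after seeing the data. The cause of these changes was not tested.

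The list medians moved by more than the spread between fish only for IFN-dependent genes (-0.047 by the stated dyes) and effectors (0.083 by the stated dyes and 0.093 with the signs turned). Single genes changed sign mostly with the direction of fish 1 and 3. The turn by itself shrinks the mean of a gene with the same sign in all 4 fish. With the signs turned and with the scanner files read by the stated dyes, the means were -0.16 and -0.16 for Omy#S15341095, 0.80 and 0.78 for the very large inducible GTPase, 0.10 and 0.094 for apolipoprotein A-II, 0.22 and 0.21 for acyl-CoA desaturase, 0.49 and 0.41 for apolipoprotein B, 0.45 and 0.37 for lactase, and 0.38 and 0.34 for SLC15A1. They were 0.18 and 0.25 for intestinal fatty acid-binding protein and 0.27 and 0.34 for apolipoprotein A-I-1, and by the stated dyes 0.078 for apolipoprotein A-I-2. Of the immune genes, they were -0.12 and -0.079 for annexin A1, 0.30 and 0.24 for CCAAT/enhancer binding protein beta-2, 0.042 and 0.037 for collagenase 3, -0.078 and -0.079 for 5-aminolevulinate synthase, -0.033 and -0.031 for the T-cell receptor beta chain, -0.035 and -0.063 for interleukin-22, and -0.028 and -0.024 for LINCR. For the rest they were -0.20 and -0.20 for guanidinoacetate N-methyltransferase, -0.14 and -0.13 for the sulfate transporter, -0.55 and -0.52 for carboxypeptidase N, -1.17 and -0.96 for cytochrome P450 2M1, 0.077 and 0.048 for gelsolin, -0.030 and -0.036 for hyaluronan and proteoglycan link protein 4, 0.15 and 0.13 for beta-1,3-N-acetylglucosaminyltransferase 7, and 0.19 and 0.18 for heat shock cognate 71 kDa protein. The scanner software's log ratios gave -0.28 for hyaluronan and proteoglycan link protein 4.

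Leaving out 1 fish turned the sign of 8 of the named probes in at least 1 case. The means without 1 fish ran from -0.55 to 0.51 for the MHC I probe found by accession, from -0.058 to 0.24 for the sulfate transporter probe found by accession, from -0.12 to 0.59 for annexin A1 and from -0.25 to 0.053 for CCAAT/enhancer binding protein beta-2. They ran from -0.31 to 0.48 for MHC class I antigen, from -0.46 to 0.092 for C1 inhibitor, from -0.030 to 0.25 for hyaluronan and proteoglycan link protein 4 and from -0.054 to 0.085 for interleukin-22. Dim signals limit the low side of Ssa#DW006091, where the red channel was not well above background on arrays 1 and 2. The same held for interleukin-22 on all 4 arrays and for ubiquitin and hyaluronan and proteoglycan link protein 4 on array 2. For the MHC class I probe (Ssa#S30241035) and cytochrome P450 2M1, 1 of 2 red spots was well above background on array 2. The same count held for beta-1,3-N-acetylglucosaminyltransferase 7 on arrays 1 and 2. For Ssa#DY716550, 1 of 2 green spots was well above background on array 4.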
